A study of Mus musculus with 2 samples.

Results

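The enzymes that break down amino acids were compared between areas of PiZ mouse liver with and without globules. A list of 49 such enzymes was fixed by name, with earlier results of these data known. Of these, 46 have a probe set that names only that gene, among 30142 genes named in this way. Sds, Sdsl and Tdh were not analysed here. Both groups come from untreated C57BL/6 mice on standard chow, killed at 3 months of age, that carry the human alpha-1-antitrypsin Z gene under its own human promoter. The transgene and strain are thus shared by the globule-containing and the globule-free group, and no liver without the transgene was part of the comparison. Areas were picked by morphology under a Cresyl Violet stain and cut out by laser. Each group is 1 array hybridised with RNA from a pool of 2 mice. The labels do not say whether the same mice gave both pools.

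The liver is the main site of amino acid breakdown. Transaminases move the amino group to a keto acid, using pyridoxal phosphate, and the carbon skeleton is then oxidised in the cytosol or in mitochondria to intermediates of the citric acid cycle, glucose or ketone bodies. Tyrosine and tryptophan are degraded mainly in hepatocytes, whereas the first step of branched-chain amino acid breakdown takes place largely in muscle, and hepatocytes take over at the keto acid stage. Many of these enzymes are under the control of glucocorticoids, glucagon and protein intake.

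Every value is a deposited log2 signal of 1 array, and a difference is globule-containing minus globule-free. Where a pair of signals is given, the globule-containing array comes first. There is no replicate, so a difference describes this pair of arrays and carries no error or p-value, and the number of arrays limits the precision. Levels of different genes cannot be compared with each other on an array. In RNA from captured areas, fewer cells of a type and less RNA per cell cannot be told apart. Genes were kept where their mean over both arrays reached a floor of 4.76, which 15023 genes and all 46 enzymes did. Background, read from receptors of smell and pheromones that liver should not express, lay at 4.85 on the globule-containing and 5.04 on the globule-free array, and no enzyme was at or below it on either. The hepatocyte marker Alb, serum albumin, had 19.90 with globules and 19.80 without, at the ceiling of both arrays. Ttr had 19.72 against 19.75, also close to the ceilings of 19.93 and 19.80. A difference can be hidden there, so Alb and Ttr give no measure of hepatocyte content. The 6 measured hepatocyte markers lay within 2-fold as deposited, with a median of -0.42. Under loess correction 2 of them were lower by 2-fold or more, with a median of -0.73. Under quantile normalization 1 was, with a median of -0.64, beside 6.40% of all genes under each correction. A shift by the spiked-in hybridisation controls turned the median of these markers to 0.17.

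Promoter sequences of 6 enzymes are shown first, because they are the 3 with the largest lower signals (Got1, Agxt, Aadat), the entry enzyme of tryptophan breakdown (Tdo2) and the pair with higher signals (Csad, Bckdk). They were taken from RefSeq, build GRCm38.p6, and each runs 5′ to 3′ through the 250 bases before the annotated start. Capitals mark letters that match any of 7 motifs searched on both strands. Got1 lies at chr19:43524606-43524855 (minus strand), Agxt at chr1:93134990-93135239 (plus), Aadat at chr8:60505874-60506123 (plus), Tdo2 at chr3:81975729-81975978 (minus) and Bckdk at chr7:127903823-127904072 (plus). Csad has a pair of annotated starts, at chr15:102189044-102189293 and chr15:102205053-102205302, both on the minus strand.
Got1: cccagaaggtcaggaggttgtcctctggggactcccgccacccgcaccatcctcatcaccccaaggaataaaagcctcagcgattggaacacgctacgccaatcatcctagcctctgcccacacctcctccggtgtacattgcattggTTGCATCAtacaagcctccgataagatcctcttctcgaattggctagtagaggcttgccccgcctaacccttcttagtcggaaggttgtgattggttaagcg
Agxt: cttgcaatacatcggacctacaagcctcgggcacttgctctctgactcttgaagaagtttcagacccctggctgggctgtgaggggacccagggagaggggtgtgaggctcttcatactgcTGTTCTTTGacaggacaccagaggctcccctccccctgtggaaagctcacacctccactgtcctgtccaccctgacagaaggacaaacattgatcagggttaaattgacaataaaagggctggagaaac
Aadat: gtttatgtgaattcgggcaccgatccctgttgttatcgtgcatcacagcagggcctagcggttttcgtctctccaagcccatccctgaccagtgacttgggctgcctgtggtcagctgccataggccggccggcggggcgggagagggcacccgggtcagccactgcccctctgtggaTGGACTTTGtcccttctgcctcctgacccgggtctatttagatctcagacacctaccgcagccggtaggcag
Tdo2: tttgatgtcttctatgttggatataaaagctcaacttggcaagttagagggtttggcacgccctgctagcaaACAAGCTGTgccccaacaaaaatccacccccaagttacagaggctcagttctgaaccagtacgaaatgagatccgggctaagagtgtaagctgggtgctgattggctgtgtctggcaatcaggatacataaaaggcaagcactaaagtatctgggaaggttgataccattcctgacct
Csad, start with the lower coordinate: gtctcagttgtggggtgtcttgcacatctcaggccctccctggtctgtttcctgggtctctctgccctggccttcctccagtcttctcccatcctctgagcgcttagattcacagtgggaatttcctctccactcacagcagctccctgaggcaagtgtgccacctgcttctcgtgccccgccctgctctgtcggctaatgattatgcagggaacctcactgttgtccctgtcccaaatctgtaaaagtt
Csad, start with the higher coordinate: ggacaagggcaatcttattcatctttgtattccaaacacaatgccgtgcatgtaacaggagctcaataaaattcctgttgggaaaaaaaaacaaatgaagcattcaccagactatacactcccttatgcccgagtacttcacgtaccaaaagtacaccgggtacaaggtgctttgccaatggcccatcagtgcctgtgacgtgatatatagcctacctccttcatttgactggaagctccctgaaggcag
Bckdk: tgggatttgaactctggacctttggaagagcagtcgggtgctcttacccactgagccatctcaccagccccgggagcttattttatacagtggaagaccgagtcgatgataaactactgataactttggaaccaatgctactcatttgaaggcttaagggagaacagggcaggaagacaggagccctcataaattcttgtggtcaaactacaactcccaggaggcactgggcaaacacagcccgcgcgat

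The capitals in Got1 read TTGCATCA and begin 102 bases before the start, a match to the ATF4 motif TGATGNAA on the other strand. In Agxt they read TGTTCTTTG at 129 bases and in Aadat TGGACTTTG at 72 bases, both matches to the HNF4 motif CAAAGNNCA. The match in Tdo2 reads ACAAGCTGT at 178 bases and fits the glucocorticoid receptor motif ACANNNTGT. None of the 7 motifs occurs in the windows shown for Csad and Bckdk.

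Globule-containing areas had lower signals for most amino acid catabolism enzymes. Of 46, 25 were lower by 2-fold or more, against 5.26% of the 15023 genes above the floor. Only 2 of them, Csad and Bckdk, were higher by 2-fold or more, against 6.47% of all genes, and 19 lay within 2-fold. The median difference was -1.05, beside 0.05 over all genes above the floor, and 41 of 46 differences were negative, against 45.5% of all genes. Lower by 4-fold or more were 7 enzymes, namely Got1, Agxt, Aadat, Gldc, Dbt, Aass and Acmsd, against 1.32% of all genes. Csad alone was higher by 4-fold or more, against 1.42%. On the same arrays, periportal hepatocyte markers had a median of -2.54 and stellate cell markers one of 2.43.

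**Figure D1:**
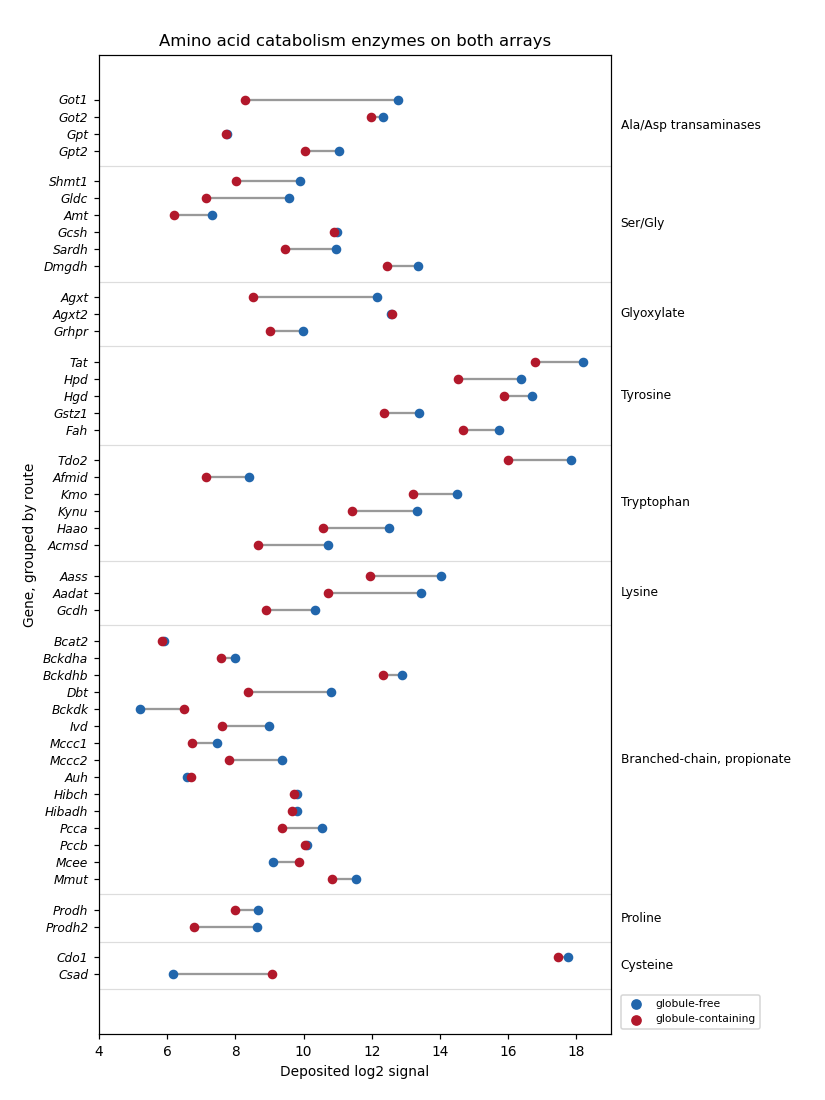
Deposited log2 signal (x axis) of 46 amino acid catabolism enzymes (y axis, grouped by route) on the globule-free array (blue) and the globule-containing array (red), each point being 1 array. The red point lies left of the blue one for 41 of 46 enzymes, and the widest gap is that of Got1, at 8.29 against 12.78.

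Scaling of the arrays matters for the size of this shift. All 4 hybridisation controls, bacterial and phage transcripts that are spiked into the hybridisation mix, were lower on the globule-containing array too, with log2 differences from -0.77 to -0.33. The arrays were then shifted by their median of -0.59, a setting chosen after the data were seen. With it, 13 of 46 enzymes stayed lower by 2-fold or more and 3 were higher by 2-fold or more. The median was -0.46, and 31 of 46 differences were negative. The share of negative differences over all genes was not counted under this shift, and the deposited 45.5% does not apply to it. Over all genes the same shift left 2.30% lower by 2-fold or more, put 23.7% higher by 2-fold or more and moved the median to 0.64. The 13 were Got1, Agxt, Aadat, Gldc, Dbt, Aass, Acmsd, Haao, Kynu, Shmt1, Hpd, Prodh2 and Tdo2. After loess correction, and likewise after quantile normalization, 28 enzymes were lower by 2-fold or more, with all 25 among them. Over all genes, 6.40% were lower by 2-fold or more under each of these, and 5.63% were higher by 2-fold or more after loess and 5.69% after quantile normalization.

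**Figure D2:**
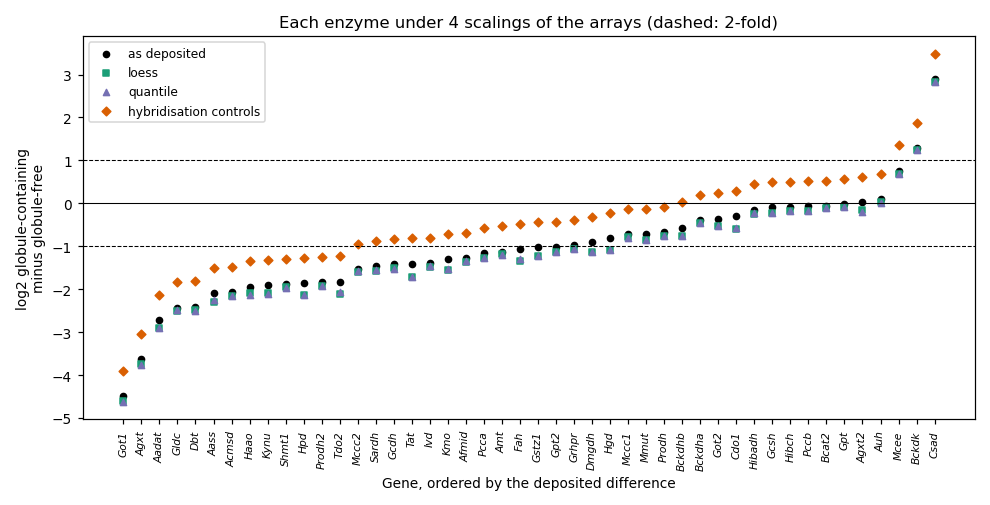
Difference on the log2 scale (y axis) of each enzyme (x axis, ordered by the deposited difference) as deposited (black), after loess (green), after quantile normalization (purple) and after a shift by the hybridisation controls (orange). Csad and Bckdk stay above the upper 2-fold line under these scalings, and the shift by the controls adds Mcee there.

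The count was also read among brighter genes. Above a stricter floor at the 75th percentile, at 6.70, 43 enzymes remained, and 25 of them were lower by 2-fold or more against 8.01% of 7478 genes. At this floor only Csad was higher by 2-fold or more, against 8.59% of genes, because Bckdk had a mean below it. This floor is set on the mean of both arrays, so Amt, at 6.19 against 7.31, and Csad, at 9.06 against 6.16, passed it through their brighter array alone. Without the enzymes whose mean exceeded 16, 23 of 42 were lower by 2-fold or more, against 5.18% of the 14697 genes left.

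**Figure D3:**
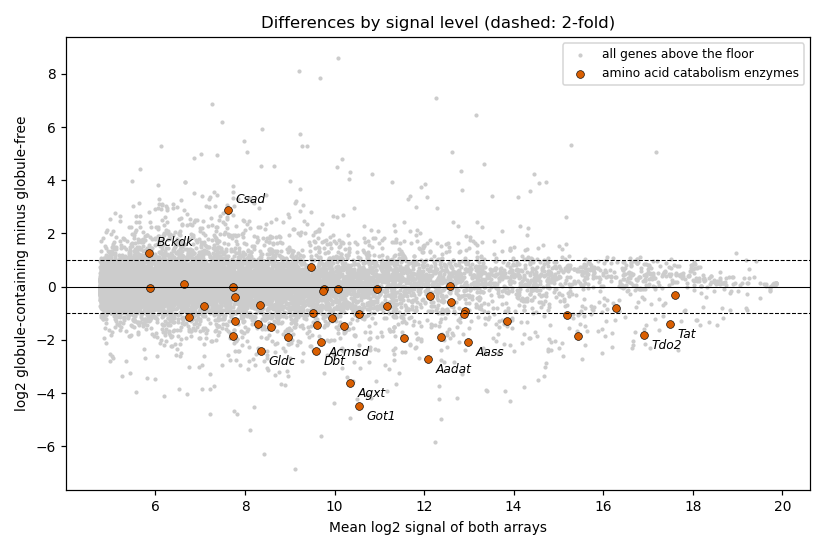
Difference on the log2 scale (y axis) against the mean log2 signal of both arrays (x axis) for 15023 genes above the floor (grey) and 46 amino acid catabolism enzymes (orange), with dashed lines at 2-fold. The enzymes spread over means from 5.85 to 17.6, and most lie below 0 along that range.

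Among the transaminases of aspartate and alanine, the largest difference of the whole set was found. Got1, the cytosolic aspartate aminotransferase and a part of the malate-aspartate shuttle, had a signal of 8.29 with globules and 12.78 without, 22.4-fold lower. Got2, the mitochondrial form of the same enzyme, had 11.96 against 12.32, a difference of -0.35. The cytosolic and mitochondrial partners thus differed by unequal amounts. For alanine the pair ran the other way: the mitochondrial Gpt2 had 10.03 against 11.05, 2.02-fold lower and close to the threshold, while the cytosolic Gpt had 7.73 against 7.74. After the shift by the hybridisation controls Gpt2 was within 2-fold.

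Enzymes of tyrosine breakdown were all lower, 4 of 5 by at least 2-fold against 5.26% of all genes, with a median of -1.07. Tat, the tyrosine aminotransferase that opens the route and is a classic glucocorticoid target, had 16.79 with globules and 18.20 without, 2.65-fold lower. Hpd, the dioxygenase that makes homogentisate, had 14.52 against 16.37, 3.62-fold lower. The later steps differed less. Gstz1, the maleylacetoacetate isomerase, had 12.37 against 13.39, 2.03-fold lower, and Fah, the fumarylacetoacetase whose loss causes hereditary tyrosinaemia, had 14.66 against 15.73, 2.10-fold lower. Hgd, which opens the homogentisate ring, had 15.88 against 16.69, a difference of -0.81. Of these 5, Hpd alone remained lower by 2-fold or more after the shift by the hybridisation controls. Beside them, Qdpr, which regenerates the cofactor of phenylalanine hydroxylase, was 2.21-fold lower, and Pcbd1, which acts in the same cofactor cycle, differed by -0.64.

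The tryptophan route was lower at every measured step. All 6 enzymes were lower by 2-fold or more as deposited, against 5.26% of all genes. After the shift by the hybridisation controls all but Afmid and Kmo were, against 2.30% of all genes. The deposited median was -1.87, with differences between -2.07 and -1.28. Tdo2, the dioxygenase that commits tryptophan to breakdown in liver, had 16.002 with globules and 17.83 without, 3.54-fold lower. Afmid, the formamidase that follows, had 7.13 against 8.41, 2.43-fold lower. Kmo, the kynurenine hydroxylase of the outer mitochondrial membrane, had 13.21 against 14.50, 2.46-fold lower. Kynu, which cleaves hydroxykynurenine, had 11.42 against 13.32, 3.75-fold lower. Haao, which opens the ring of hydroxyanthranilate, had 10.57 against 12.51, 3.84-fold lower. Acmsd, which draws the product away from quinolinate and NAD synthesis, had 8.66 against 10.73, 4.20-fold lower. Qprt, which takes quinolinate on towards NAD, had 9.19 against 9.69 and lay within 2-fold. Aldh8a1, which acts after Acmsd, was 2.44-fold lower. The side branches had the same sign as deposited: Kyat1, a kynurenine aminotransferase, had 7.02 against 9.82, 6.96-fold lower. Kyat3, another kynurenine aminotransferase, differed by -0.41, and Ido2, a dioxygenase related to Ido1, by -0.99. After the shift by the hybridisation controls the difference was 0.18 for Kyat3 and 0.10 for Qprt.

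Lysine breakdown was lower at its 3 measured steps, each by 2-fold or more as deposited against 5.26% of all genes, with a median of -2.09. Aass, the bifunctional enzyme of the first reactions, had 11.93 with globules and 14.02 without, 4.25-fold lower. Aadat, the aminoadipate transaminase, which also accepts kynurenine, had 10.72 against 13.44, 6.59-fold lower. Gcdh, glutaryl-CoA dehydrogenase, had 8.91 against 10.33, 2.68-fold lower. Between them in the route, Dhtkd1, a subunit of the oxoadipate dehydrogenase, was 3.57-fold lower, and Aldh7a1 differed by -0.84. The other subunits of that dehydrogenase, which further complexes share, differed by -0.50 for Dlst and 0.22 for Dld. Tryptophan breakdown joins the route at oxoadipate.

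In the serine, threonine and glycine route, all 6 measured enzymes had a negative difference and 4 were lower by 2-fold or more. Over all genes these shares were 45.5% and 5.26%. The median of the route was -1.30. Shmt1, the cytosolic serine hydroxymethyltransferase, had 8.02 with globules and 9.90 without, 3.67-fold lower. Its mitochondrial counterpart Shmt2, not a member of the list, had 10.51 against 10.37. The subunits of the mitochondrial glycine cleavage complex were unequal. Gldc, the decarboxylase, had 7.15 against 9.58, 5.39-fold lower, and Amt, the aminomethyltransferase, had 6.19 against 7.31, 2.18-fold lower. Gcsh, the lipoyl carrier of the complex, had 10.89 against 10.99, a difference of -0.10 that became 0.49 after the shift by the hybridisation controls, and Dld, the dehydrogenase it shares with other complexes, had 12.53 against 12.31. Sardh, sarcosine dehydrogenase, had 9.47 against 10.94, 2.77-fold lower, and Dmgdh, dimethylglycine dehydrogenase, had 12.46 against 13.37, a difference of -0.91. Gnmt, which makes sarcosine from glycine, was 2.92-fold lower, and Pipox, a peroxisomal oxidase of sarcosine and pipecolate, 4.55-fold lower.

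For glyoxylate, Agxt, the alanine-glyoxylate aminotransferase that is deficient in primary hyperoxaluria, had 8.52 with globules and 12.15 without, 12.4-fold lower. Hao1, the peroxisomal glycolate oxidase that makes glyoxylate, had 9.67 against 12.59, 7.59-fold lower. Grhpr, which reduces glyoxylate, had 9.02 against 9.99, a difference of -0.97 and just inside 2-fold. Agxt2, a mitochondrial aminotransferase that also acts on beta-amino acids, had 12.60 against 12.57. Its difference was 0.03 as deposited and -0.17 after loess, so it has no settled sign.

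The branched-chain and propionate route had the deposited median closest to 0. Of 15 enzymes, 4 were lower by 2-fold or more and 1 was higher by 2-fold or more, against 5.26% and 6.47% of all genes. The median was -0.39, and 0.20 after the shift by the hybridisation controls, beside 0.05 and 0.64 over all genes. Bcat2, the mitochondrial branched-chain aminotransferase, had 5.84 with globules and 5.91 without, low on both. In the branched-chain keto acid dehydrogenase, the core subunit Dbt had 8.38 against 10.79, 5.31-fold lower. The other subunits differed less: Bckdha had 7.59 against 7.98 and Bckdhb 12.32 against 12.89. Bckdk, the kinase that phosphorylates and inactivates this complex, had 6.49 against 5.20, 2.44-fold higher, with its globule-free signal near the background of 5.04. Ppm1k, the phosphatase that activates the complex, had 8.59 against 10.39, 3.49-fold lower. Kinase and phosphatase of the complex lay on opposite sides of 0 as deposited and under the 4 other scalings, with differences from 1.24 to 1.87 for Bckdk and from -1.93 to -1.21 for Ppm1k.

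Leucine enzymes came next. Ivd, isovaleryl-CoA dehydrogenase, had 7.59 with globules and 8.98 without, 2.61-fold lower. Mccc2, a subunit of methylcrotonyl-CoA carboxylase, had 7.83 against 9.35, 2.88-fold lower, and its partner Mccc1 had 6.74 against 7.45, a difference of -0.71. Auh, the hydratase that follows, had 6.69 against 6.59. The valine enzymes Hibch and Hibadh differed by -0.09 and -0.15, and Abat, the GABA transaminase, was 3.34-fold lower. In the propionate steps, Pcca, the biotin-carrying subunit of propionyl-CoA carboxylase, had 9.37 against 10.53, 2.25-fold lower, whereas its partner Pccb had 10.03 against 10.11. Mcee, the methylmalonyl-CoA epimerase, had 9.86 against 9.10, a difference of 0.76, and Mmut, the vitamin B12-dependent mutase after it, had 10.82 against 11.53, a difference of -0.71. Acadsb, the dehydrogenase of the isoleucine branch, was 2.06-fold lower.

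Proline and cysteine enzymes gave the remaining values. Prodh2, which oxidises hydroxyproline, had 6.80 with globules and 8.64 without, 3.59-fold lower. Prodh, the proline oxidase, had 7.99 against 8.67, a difference of -0.68, and Aldh4a1, the next enzyme for both substrates, was 3.13-fold lower. Cdo1, the cysteine dioxygenase, had 17.45 against 17.75, a difference of -0.30. Csad, which decarboxylates its product on the way to taurine, had 9.06 against 6.16, 7.45-fold higher. Csad was thus the largest higher signal of the set, and the difference ran from 2.82 to 3.49 over the scalings tried.

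**Figure D4:**
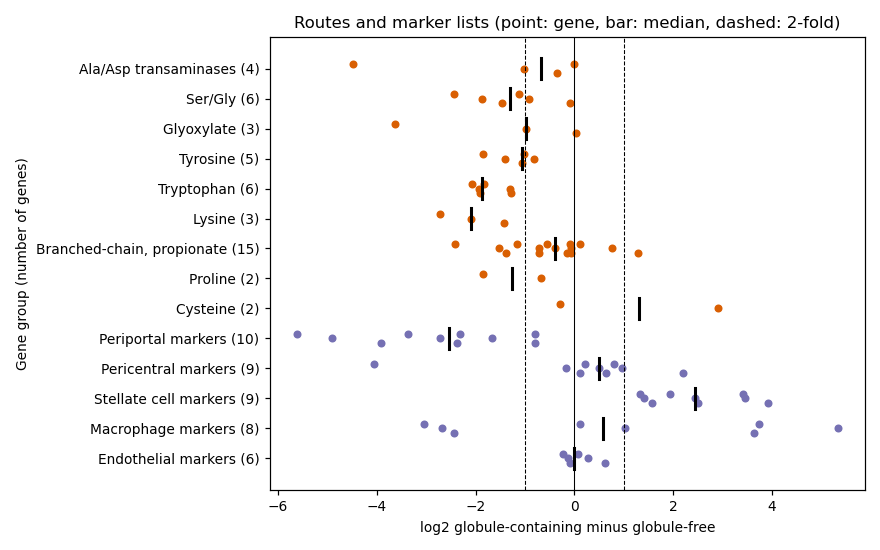
Difference on the log2 scale (x axis) for each enzyme by route (orange points) and for marker lists of liver cells (purple points), with a bar at the median and dashed lines at 2-fold. The tryptophan and lysine routes lie wholly beyond the lower 2-fold line on the deposited scale, with medians of -1.87 and -2.09, and the branched-chain route has its median at -0.39.

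The enzymes were also read by place in the cell and by cofactor. Transaminases, which use pyridoxal phosphate, were among the kinds the list was set by, so cofactor and choice overlap. Of 29 measured mitochondrial enzymes, 13 were lower by 2-fold or more and 1 higher, with a median of -0.71. For this and the deposited counts that follow, 5.26% of all genes were lower and 6.47% higher by 2-fold or more. Of 17 enzymes assigned to the cytosol or peroxisome, 12 were lower by 2-fold or more and 1 higher, with a median of -1.41. Each enzyme was given 1 place only, and Agxt was counted outside mitochondria. The 15 branched-chain and propionate enzymes all belong to the mitochondrial group, so route and compartment overlap. After the shift by the hybridisation controls, 5 of 29 and 8 of 17 were lower by 2-fold or more, against 2.30% of all genes. Of 13 pyridoxal phosphate enzymes, 8 were lower by 2-fold or more, with a median of -1.41, beside 17 of 33 others with a median of -1.02. These differences between groups of enzymes were not tested.

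Promoters were available for 41 of the 46 genes, as 47 windows of 300 bases that reach 50 bases past the start. Letters of the HNF4 motif CAAAGNNCA occurred in 4 of 25 windows of the lower enzymes (Aadat, Agxt, Haao and Kmo), in 2 of 19 windows of enzymes within 2-fold, both of Agxt2, and in 6.36% of 32851 windows in the table. The C/EBP motif TTGCNNAA was found in 3 of 25 windows of the lower enzymes (Aass, Gcdh and Prodh2) against 10.8% of all windows. It was also in 2 of 19 windows of enzymes within 2-fold (Agxt2 and Hgd). For the glucocorticoid receptor motif ACANNNTGT the count was 2 of 25 (Ivd and Tdo2), beside 1 of 19 within 2-fold (Bckdhb), against 6.85%. The HNF1 motif GTTAATNAT occurred in Prodh2, in the same window as the C/EBP letters, and in Got2, within 2-fold, against 0.801% of all windows. The ATF4 motif TGATGNAA occurred only in Got1, against 3.97%. The FOXA motif TGTTTAC occurred in Auh and Hibadh, both within 2-fold, against 3.65%, and the CREB motif TGACGTCA in no member, against 1.79%. The median number of CG dinucleotides per window was 9 for the lower enzymes, 17 for those within 2-fold and 7 over the table. A match describes the letters of these windows only.

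Other genes of the same routes were mostly lower. They come from a further list of 49, also drawn up with earlier results of these data known, so they are no independent check. Of 39 measured, 34 were above the floor, and 27 of these had a negative difference, against 45.5% of all genes. By 2-fold or more, 11 were lower and none was higher, beside 5.26% and 6.47% of all genes. The median of the 34 was -0.86. The 11 were Qdpr, Aldh4a1, Dhtkd1, Acadsb, Abat, Ppm1k, Kyat1, Aldh8a1, Gnmt, Pipox and Hao1, each described above. After the shift by the hybridisation controls 7 of 34 were lower by 2-fold or more and 1 was higher by 2-fold or more, with a median of -0.27, beside 2.30% and 23.7% of all genes. Loess correction gave 18 of 34 and quantile normalization 20 of 34 lower by 2-fold or more, beside 6.40% of all genes under each. The enzymes of serine synthesis, which run opposite to breakdown, were dim on both arrays: Psat1 had 5.03 against 4.69, Psph 4.77 against 4.82 and Phgdh 4.67 against 4.52.

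**Figure D5:**
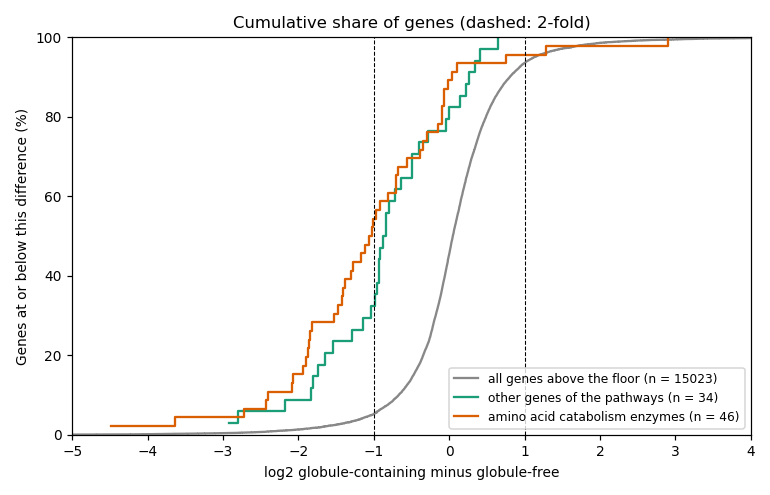
Share of genes (y axis, percent) at or below each log2 difference (x axis, drawn from -5 to 4) for all 15023 genes above the floor (grey), 34 other genes of the routes (green) and 46 amino acid catabolism enzymes (orange). Both pathway curves lie left of the grey curve, with medians of -0.86 and -1.05 against 0.05.

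Of 11 measured regulators of amino acid breakdown, 9 lay within 2-fold, as did 13261 of all 15023 genes. The regulators had a median of -0.24, which became 0.35 after the shift by the hybridisation controls. Among them, Ppargc1a, a coactivator of fasting metabolism, had 7.03 with globules and 9.07 without, 4.11-fold lower. Creb1, the cyclic AMP response factor, had 9.44 against 8.41, 2.04-fold higher. Its difference of 1.03 fell short of 2-fold under 3 of the 4 other scalings, at 0.98 with equal medians, 0.94 after loess and 0.96 after quantile normalization. The other 9 ran from -0.75 for Hnf4a to 0.39 for Gcgr, the glucagon receptor. Nr3c1, the glucocorticoid receptor, differed by -0.36, Cebpa by -0.61, Cebpb by -0.24, Klf15 by -0.22, Creb3l3 by -0.72, Foxa2 by -0.11 and Foxo1 by -0.01.

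Markers of lobular position and of other cells also differed between the arrays. Of 10 measured periportal markers, 8 were lower by 2-fold or more against 5.26% of all genes, with a median of -2.54. Their signals ran from 5.57 to 16.48 with globules and from 7.23 to 18.85 without. Hal, Arg1 and Cps1, themselves enzymes of amino acid and nitrogen metabolism, differed by -5.61, -3.37 and -2.37. The others ran from -4.91 for Etnppl to -0.81 for Cdh1 and Hsd17b13, both within 2-fold. Of 9 pericentral markers, 1 was lower by 2-fold or more and 1 higher by 2-fold or more, beside 5.26% and 6.47% of all genes. The lower one was Cyp2c37, at 8.71 against 12.77, and the higher one Gulo, at 15.41 against 13.22. The others ran from -0.16 for Slc1a2 to 0.96 for Cyp1a2, with Cyp2e1 at 0.12. The median of the 9 was 0.50, the value of Axin2, and signals ran from 5.25 to 18.97 against 4.75 to 18.85. Axin2, at 5.25 against 4.75, and Lgr5, at 5.82 against 5.01, were below the background of 5.04 on the globule-free array. At the floor of the 75th percentile 6 of these markers remained, with a median of 0.17. After the shift by the hybridisation controls 5 of the 9 pericentral markers were higher by 2-fold or more, against 23.7% of all genes. Their median was then 1.09, and the periportal median was -1.95. Stellate cell and fibroblast markers above the floor were higher by 2-fold or more in 9 of 9 cases, against 6.47% of all genes. Their median was 2.43, and the signals of all 10 ran from 4.80 to 15.22 against 4.56 to 11.80. Macrophage markers split, with 4 of 8 higher by 2-fold or more and 3 lower, against 6.47% and 5.26% of all genes. Lyz2, Cd68, Tyrobp and Csf1r were higher, at 5.34, 3.73, 3.63 and 1.03. Clec4f, Cd5l and Vsig4 were lower, at -3.05, -2.68 and -2.44, and Adgre1 differed by 0.12. Under equal medians, loess and quantile normalization 3 were higher by 2-fold or more, against 5.86%, 5.63% and 5.69% of all genes. Macrophage marker signals ran from 6.96 to 17.96 against 7.57 to 12.62. Neutrophil markers above the floor were higher by 2-fold or more in 2 of 4 cases, against 6.47% of all genes. These were S100a8, at 5.92, and S100a9, at 4.54. Ly6g, at 5.35 against 5.07, and Csf3r, at 5.42 against 5.33, lay within 2-fold. The signals of all 5 neutrophil markers ran from 5.11 to 11.34 against 3.92 to 6.37. The 6 endothelial markers lay within 2-fold, 3 of 4 measured lymphocyte markers were at or below background on both arrays, and of 4 cholangiocyte markers none was 2-fold apart. After the shift by the hybridisation controls 1 endothelial and 1 cholangiocyte marker were higher by 2-fold or more, against 23.7% of all genes. The part of these markers in the enzyme values was not tested.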

How the data were processed

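RNA from laser-captured areas of PiZ mouse liver was measured on 2 arrays, 1 per group, each from a pool of 2 mice. Per the labels' protocols, a PicoPure kit was used for isolation and 50 ng of RNA went into the NuGEN Ovation WTA labelling of each array. The deposited table gives log2 signals for 72688 probe sets, made with the Transcriptome Analysis Console per the submitters' processing notes. The sources used here give no version, background correction, normalization or build.

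Genes were named from the supplied platform annotation, with symbols updated through Entrez IDs to RefSeq (Mut is given as Mmut). Only probe sets naming 1 gene were used, and each enzyme has 1. The floor is the median over such probe sets. Background is the 95th percentile of 1721 probe sets of olfactory and vomeronasal receptors. Differences of 2-fold or more were counted, with no test, and the counting was checked on known inputs. All enzymes are accounted for by route, and other route genes are named where at least 2-fold apart or beside an enzyme they act with. The enzymes, lists, motifs and shown promoters were chosen with earlier results of these data known. Alternatives were the floor, threshold, scaling, probe set choice, dim values and bright genes. Python 3.11.15, numpy 2.4.6, pandas 2.3.3, statsmodels 0.14.6 and matplotlib 3.10.9 were used.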

Additional observations from a re-analysis of the deposited data

How the results depend on the processing

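With 1 array per group no replicate can be left out, and a value was taken as moved where it shifted by more than 0.17, the median gap between both probe sets of 177 genes that have a pair. The count of enzymes at least 2-fold lower was 25 as deposited and lay between 23 and 28 under the other floors, scalings, probe set choices, dim values and the removal of bright genes, except that after the shift by the hybridisation controls it was 13, with a median of -0.46. At a 1.5-fold threshold 31 enzymes were lower and 3 higher, against 11.9% and 16.02% of all genes, and at a 4-fold threshold 7 were lower and 1 higher. At the floor of the 75th percentile 1 enzyme was at least 2-fold higher, and the branched-chain median was -0.64. Loess moved the medians of tyrosine to -1.34, tryptophan to -2.10, lysine to -2.30 and cysteine to 1.11, and quantile normalization those of tyrosine to -1.30, tryptophan to -2.09 and cysteine to 1.13. The shift by the hybridisation controls gave medians of -0.10 for the alanine and aspartate transaminases, -0.71 for serine and glycine, -0.38 for glyoxylate, -0.48 for tyrosine, -1.28 for tryptophan, -1.50 for lysine, 0.20 for branched-chain enzymes, -0.67 for proline and 1.89 for cysteine. Over all genes the median was then 0.64. This shift raises every difference by the same amount, so it moves each value by construction. Of 34 other route genes, 11 were lower by 2-fold or more as deposited, 18 after loess and 20 after quantile normalization. No paired analysis was possible because each group has 1 array.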

Other observations

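A few route genes were read only by probe sets that name several genes, so their values cannot be assigned. The probe set of Glud1, glutamate dehydrogenase, which also names Gm3219, had 16.12 with globules and 16.30 without. That of Etfb, an electron acceptor of several dehydrogenases in these routes, had 11.58 against 13.07, a difference of -1.50. That of Gcat, which takes part in threonine breakdown, had 5.38 against 6.45, a difference of -1.07, and that of Hoga1, an enzyme of hydroxyproline breakdown, 6.60 against 7.40.

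Control probe sets outside the gene comparison were also lower on the globule-containing array. The 4 Bacillus transcripts differed by -0.70 to -0.25, and 22 of 23 background probe sets binned by GC content had a negative difference, with a median of -0.11.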
